A study of Mus musculus with 4 samples.

Results

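Round spermatids poor in mitochondrial RNA were examined in a single-cell RNA-seq study of mouse testis. They were chosen by 5 limits on each barcode: at least 500 detected genes, under 0.5% of unique molecular identifiers (UMI) from mitochondrial genes, at least 4 UMI summed over Acrv1, Spaca1, Tssk1, Tssk2, Lyzl1, Lyzl6, Catsper3 and Catsper4, more of these UMI than of Pou5f2 and Piwil1 together, and under 3% of UMI from Tnp1, Tnp2, Prm1 and Prm2. Of 31992 barcodes with at least 500 genes, 3793 (11.9%, exact 95% binomial interval 11.5% to 12.2%) met all 5 limits. They are called the members here. The values that chose them are given as a description, with no test.

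The study profiled cell suspensions of whole testes from C57BL/6 mice at postnatal day 63. There were 2 samples of Phf7 f/f, which carry floxed Phf7 without the Cre, and 2 of Phf7 tKO, which is Stra8-Cre:Phf7 f/f. Stra8-Cre is active in male germ cells from the spermatogonial stage onward, so every group carries the floxed allele and the deletion is limited to germ cells. The deposited matrix pools 4 libraries, told apart by a number at the end of each barcode (suffix 1 to 4). The labels do not say which suffix is which sample or genotype, so the 4 suffixes are shown side by side, no genotypes are compared, the pool counts as 1 sample, and no test between groups was possible. Intervals cover counting error only.

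Round spermatids are the haploid cells that follow the meiotic divisions. They build the acrosome, a secretory vesicle that caps the nucleus, and start the flagellum, while their nuclei still hold histones and are transcribed. Later they replace histones with transition proteins and then protamines, stop transcription, and rely on RNAs that were made early and stored. Mitochondria of spermatids are small and condensed until they gather around the flagellum, and their own genome gives a handful of polyadenylated RNAs that a 3′ library counts beside the nuclear ones. Neighbouring spermatids stay joined by cytoplasmic bridges and share RNAs.

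The suffixes held similar shares of members. Suffix 1 had 892 of 8112 barcodes (11%), suffix 2 had 1009 of 7528 (13.4%), suffix 3 had 883 of 7820 (11.3%) and suffix 4 had 1009 of 8532 (11.8%). Together the members held 31645659 UMI, from 686 to 258992 in a barcode, with a median of 2525 UMI and 1407 genes. By suffix, the median UMI was 2775, 2411, 2547 and 2426. The median mitochondrial share was 0.0324%, the median share of the 4 transition protein and protamine genes was 1.49%, and 1322 members had no mitochondrial UMI at all. Of all 32273 barcodes, 998 had a sequence that also occurred in another suffix, 128 of them members.

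Without the mitochondrial limit, the other 4 limits gave 7505 barcodes, and their mitochondrial shares had 2 humps with a low stretch between them. There were 1322 barcodes without a mitochondrial UMI, 1463 at up to 0.1%, 595 from 0.1% to 0.25% and 413 from 0.25% to 0.5%. Beyond the limit there were 535 from 0.5% to 1%, 532 from 1% to 2%, 1575 from 2% to 5%, 692 from 5% to 10% and 378 above 10%. The limit itself runs through the low stretch, with 137 barcodes from 0.4% to 0.5% and 139 from 0.5% to 0.6%. These neighbours had similar depth, with medians of 3063 and 3247 UMI. The other limits cut through denser parts of the data. There were 429 members with exactly 4 UMI of the spermatid genes and 577 barcodes left out with 3, and 238 members at 2.8% to 3% of transition protein and protamine UMI with 214 barcodes left out at 3% to 3.2%. At the limit of 500 genes, 15 members had under 550 and 3 barcodes with 450 or more were left out. For the excess over Pou5f2 and Piwil1, 5 members had 1 UMI more and 2 barcodes were left out at a tie.

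**Figure D1:**
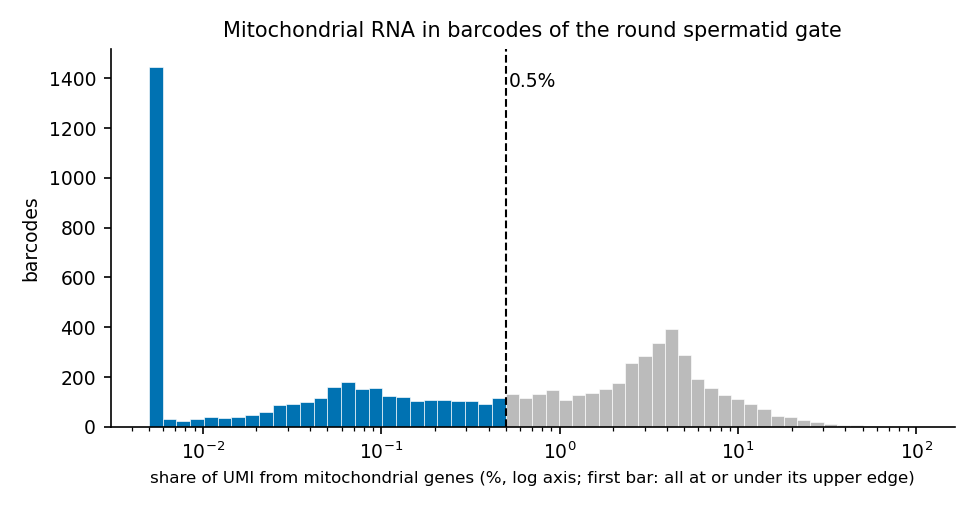
Number of barcodes (vertical axis) by share of UMI from mitochondrial genes (horizontal log axis, %) among the 7505 barcodes that met the other 4 limits. Blue bars are the 3793 members and grey bars lie beyond the limit of 0.5%, drawn as a dashed line; the leftmost bar also holds the 1322 members without a mitochondrial UMI, and a broad grey hump lies between 2% and 10%.

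The expression of several nuclear genes followed the mitochondrial share across this limit. Hspa5, the chaperone BiP of the endoplasmic reticulum, had a mean over barcodes of 71.6 counts per 1000000 UMI (CPM) in members without mitochondrial UMI, 70.9 CPM at up to 0.1%, 181.5 CPM at 0.1% to 0.25% and 300.3 CPM at 0.25% to 0.5%. It went on to 453.4 CPM at 0.5% to 1%, 710.4 CPM at 1% to 2%, 1622 CPM at 2% to 5% and 1687 CPM at 5% to 10%. From the bin of up to 0.1% to that of 5% to 10% each bin had a higher value than the bin before it, on both sides of the limit, and the 378 barcodes above 10% had a lower one, 863.9 CPM. Klf17, a Krüppel-like transcription factor, ran the other way, with 82.8, 114.5, 75.2 and 37.3 CPM in the 4 bins of members and 28.8, 21.2, 7.65 and 8.4 CPM in the 4 bins from 0.5% to 10%; above 10% it had 13.3 CPM. Pdilt, a testis-specific protein disulfide isomerase, had 632.6, 722.5, 666.9 and 573.1 CPM inside the limit and 486.3, 531.9, 331.2 and 208.2 CPM beyond it. Among the spermatid genes that chose the barcodes, Catsper3, a pore subunit of the sperm calcium channel, went from 649.6 CPM at up to 0.1% to 203.4 CPM at 5% to 10%, and Lyzl6, a sperm lysozyme-like protein, from 616.2 to 291.7 CPM. Without mitochondrial UMI they had 530.3 and 510.7 CPM. Tssk1, also of the rule, had 800.9 CPM at up to 0.1%, 496.1 CPM at 2% to 5% and 609.9 CPM at 5% to 10%. Tssk2 had 1255, 626.2 and 756.7 CPM. The rule selected on these genes, so their values are a description. Brdt, a bromodomain protein that binds acetylated histones, stayed between 98.4 and 147.5 CPM in the 8 bins up to 10% and had 73.6 CPM above 10%. The bins also differed in RNA of other cells: the summed markers of somatic cells were 0.650 to 1.33 UMI per 10000 in the 4 bins of members, and 3.94, 18.4, 18.4 and 50.2 in the 4 bins from 0.5% to 10%, and 82.7 above 10%. The part of these cells in the gradient was not tested by bin.

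**Figure D2:**
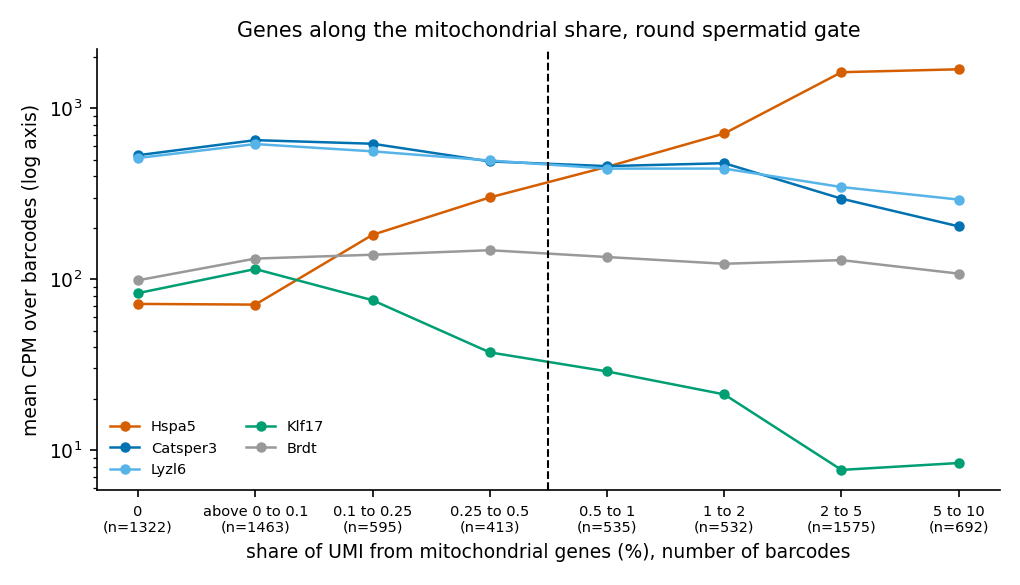
Mean CPM over barcodes (vertical log axis) of 5 genes in the 8 bins up to 10% of the share of UMI from mitochondrial genes (horizontal axis, %, with the number of barcodes; the 378 barcodes above 10% are not drawn), for barcodes that met the other 4 limits. The dashed line is the limit of 0.5%. Hspa5 goes from 70.9 to 1687 CPM, Klf17 from 114.5 to 8.4 CPM, and Brdt stays between 98.4 and 147.5 CPM. Catsper3 and Lyzl6, also drawn, are genes of the rule.

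The members were not uniform, and their depth, Smcp and Malat1 set 4 groups apart. These groups were set after the values were seen, so they are ranges of a value and not cell types, and what follows within them is a description. Smcp encodes a cysteine-rich protein of the sperm mitochondrial capsule, and Malat1 is a long noncoding RNA kept in nuclei. There were 656 deep members (17.3%) with 10000 UMI or more, with a median of 28758 UMI and 4985 genes. Another 559 (14.7%) had under 10000 UMI and at least 2% of them from Smcp, with a median of 1724 UMI and 727 genes. Of the rest, 846 (22.3%) had at least 0.2% of UMI from Malat1 (Malat1-rich, median 3414 UMI) and 1732 (45.7%) had less (Malat1-poor, median 1680 UMI). Near the limits lay 173 members with 7000 to 14000 UMI, 10 with 1.5% to 3% of Smcp and 302 with 0.1% to 0.3% of Malat1. The deep members held 74.2% of all member UMI, so CPM of the pool mostly describe them.

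**Figure D3:**
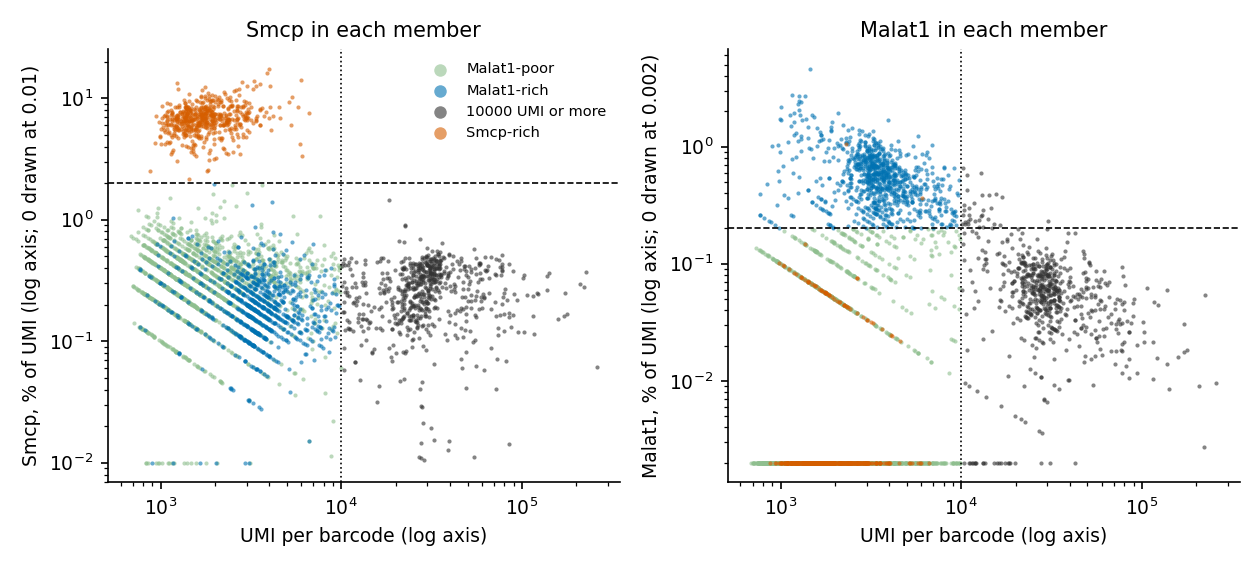
Smcp (left) and Malat1 (right) as % of UMI (vertical log axis, values of 0 drawn at the lower edge) against UMI per barcode (horizontal log axis) for each of the 3793 members, coloured by group. The 559 Smcp-rich members form a cloud of their own around a median of 6.77%, and the deep members lie below the Malat1-rich ones.

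The Smcp-rich members went against the label of round spermatid. Acrv1, an acrosomal matrix protein, was at 76.2 CPM in them, against 2046 CPM in the Malat1-rich, 749.4 CPM in the Malat1-poor and 460.7 CPM in the deep members. Tssk2, a kinase of postmeiotic cells, supplied 78.0% of their UMI of the 8 spermatid genes, against 7.83% to 20.6% in the other 3 groups. Oaz3, a testis antizyme that acts on polyamine synthesis in late spermatids, was at 23826 CPM, against 1388 to 1788 CPM, and Odf1, a protein of the outer dense fibres, at 554.6 CPM, against 109.8 to 180.9 CPM. The median share of transition protein and protamine UMI was 2.05%, mitochondrial UMI had a median share of 0%, and 500 of the 559 held no Malat1. Their number was 125 (14.0% of members) in suffix 1, 72 (7.14%) in suffix 2, 149 (16.9%) in suffix 3 and 213 (21.1%) in suffix 4.

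Compared with the other members under 10000 UMI, 372 of 8264 genes with at least 50 UMI (4.50%) were at least 2-fold higher in the pool and higher in all 4 suffixes, and 4971 (60.2%) were at least 2-fold lower. The median log2 ratio of CPM was −1.31. No acrosome gene of 31 was 2-fold higher and 29 were lower. In the CatSper list 11 of 12 genes were lower, and 16 of 18 genes of RNA storage were lower. The acrosome list holds 4 genes of the rule and the CatSper list 2, and these counts include them. Of the 8 spermatid genes of the rule 7 were lower and 1 was higher, which the rule sets in part. Glycolysis genes were split, with 7 of 20 higher and 7 lower. Among genes named after their values were seen, Itpr3os was at 1743 CPM against 42.95 CPM, Azin2, an antizyme inhibitor, at 3753 against 127.9 CPM, and Smcp itself at 71416 against 2863 CPM. Tvp23b had 1 UMI against 1154, and Hyal1, a hyaluronidase, had 0 UMI against 1073, which puts it at least 5.76 lower on the log2 scale with a floor of 3 counts. Apoe and C1qb were the 2 macrophage markers with enough UMI, and both were higher, with Apoe at 110.6 CPM. None of the 5 Sertoli markers with enough UMI passed the 2-fold limit. Smcp-rich barcodes were also 17.2% of the spermatids at the onset of protamine RNA, 73 of the 3334 round spermatids richer in mitochondrial RNA, and 0 of 680 late spermatocytes, which allows a share of up to 0.441%. The members are therefore called by their limits rather than as a cell type where this group is included.

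Malat1-rich and Malat1-poor members differed beyond Malat1 itself, which was at 5470 against 286.6 CPM. In the same measure, 1208 of 8069 genes (15%) were at least 2-fold higher in the Malat1-rich members and 353 (4.37%) lower, and the median log2 ratio was 0.05. Of 31 acrosome genes 11 were higher and none lower, and Spam1, a hyaluronidase of the sperm head, was at 728.6 against 272.6 CPM. This count includes the 4 acrosome genes of the rule, and of the 8 spermatid genes of the rule 3 were higher. Of the other nuclear-retained RNAs with enough UMI, Neat1 had 55 against 13 UMI (log2 ratio 2.38) and Kcnq1ot1 225 against 52 UMI (2.42). Of 57 nuclear genes of the respiratory chain none was higher and 8 were lower. Pfn1, an actin-binding protein, Calm2, a calmodulin, and Psmb1, a proteasome subunit, were lower by log2 ratios of −1.88, −1.79 and −1.79. The Malat1-rich members had 1926 genes in the median, against 1095.

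Between the deep members and the other members that were not Smcp-rich, 65 of 10900 genes (0.596%) were at least 2-fold higher in the deep ones and 1420 (13%) lower. All 4 transition protein and protamine genes were lower (median log2 ratio −1.57), and Malat1 was at 557.1 CPM. As a mean per barcode, the deep members held 67.9 UMI of Prm2, against 14.9 in the Malat1-poor and 17.7 in the Malat1-rich members. Leydig cell barcodes, which should lack Prm2, held 11.8 UMI each at a median depth of 7060 UMI, and macrophage barcodes 13.2 UMI at 2836 UMI. Prm2 in shallow members was near these levels of free RNA in the suspension. It is 1 of the 4 genes whose share the rule limited, so the choice of members sets this closeness in part. Acrv1 had 1.70 UMI per barcode in the Malat1-poor and 7.69 in the Malat1-rich members, against 0.0301 in Leydig cells and 0.0544 in macrophages. Acrv1 is a gene of the rule, and the Leydig and macrophage barcodes were chosen with under 4 UMI of the 8 spermatid genes. The choice of barcodes thus sets this difference in part, and it cannot place Acrv1 above free RNA. In the Smcp-rich members Acrv1 had 0.147 UMI per barcode.

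The most abundant RNAs of the members were those of sperm metabolism and structure. These CPM are 3′-end counts and are not scaled by transcript length. Their order is that of the pooled UMI, most of which the deep members held. As a mean over barcodes the order differed, with Smcp at 12855 CPM, Ldhc at 7363 CPM and Prm2 at 6692 CPM. Ldhc, the testis lactate dehydrogenase, led with 7539 CPM (7452, 7538, 7395 and 7778 CPM in suffixes 1 to 4), followed by Meig1, needed to build the manchette, with 5305 CPM. Ubb, a polyubiquitin gene, had 5152 CPM and was lower in suffix 1 (3354 CPM) than in the others (5704, 5897 and 5784 CPM). Smcp had 5111 CPM, from 4313 in suffix 2 to 6374 in suffix 4, in the order of the share of Smcp-rich members. Fabp9, a fatty acid binding protein of the sperm head, had 4483 CPM, Pebp1 3881 CPM and Gstm5, a glutathione transferase, 3710 CPM. The next ranks held Ropn1l, a fibrous sheath protein, with 3628 CPM, Gpx4, a selenium peroxidase, with 3401 CPM, and Gm5617 with 3119 CPM. Below them came Prm2 with 3044 CPM, Lyar with 2811 CPM, Dbil5 with 2795 CPM, Crisp2 with 2602 CPM and Fhl4 with 2497 CPM. Dkkl1, an acrosomal protein, Tcp11, Fam229b, Odf2, of the outer dense fibres, and Mlf1 closed the 20 highest with 2444, 2417, 2374, 2358 and 2314 CPM.

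Within the members the share of transition protein and protamine UMI, cut into 4 bins, went along with depth. The median UMI was 26297 at under 0.5%, 4014 at 0.5% to 1%, 2264 at 1% to 2% and 1399 at 2% to 3%. The bins are cut on a share that the rule also limited. Acrv1, a gene of the rule, and Spam1 were highest in the bin of 0.5% to 1%: Acrv1 had a mean over barcodes of 633.6, 1439, 999.2 and 602.1 CPM, and Spam1 273.9, 574.3, 360.6 and 140.3 CPM. Tssk6, a kinase that acts late in spermiogenesis, had 102.7, 446, 1277 and 1618 CPM, and Tfam, which packages mitochondrial DNA, had 32.5, 120.3, 208.1 and 357.5 CPM. The share of Smcp-rich members was 0%, 2.95%, 18.1% and 24.4% in the same order. Tfam was near the level of free RNA in shallow members. It had 0.534 UMI per barcode in the Malat1-poor and 0.385 in the Smcp-rich members, against 0.407 in Leydig cells and 0.389 in macrophages. Tssk6 had 0.968 in the Malat1-poor and 9.73 in the Smcp-rich members, against 0.481 and 0.686. The part of free RNA, of depth and of the Smcp-rich members in these bins was not tested.

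The members were next compared with the 3334 round spermatids richer in mitochondrial RNA, which met the same limits except that mitochondrial genes gave 0.5% to 10% of UMI (median 3.11%, median depth 3040 UMI). Acrosome and flagellum genes were on balance higher in the members, genes of the meiotic divisions, housekeeping genes of the X chromosome and RNAs of macrophages were lower, and nuclear genes of the respiratory chain lay near the median gene. Of 13557 genes with at least 50 UMI, 1572 (11.6%) were at least 2-fold higher in the members and higher in all 4 suffixes, and 5132 (37.9%) were at least 2-fold lower. The median gene had a log2 ratio of −0.59, and when ratios were counted from this median 2765 genes were higher and 3474 lower. The 11 mitochondrial genes with enough UMI were all lower, with a median of −4.96, which the rule set; mt-Co3 had 181.2 against 5911 CPM.

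RNA of other cells differed between these groups of barcodes. The 9 macrophage markers gave 0.177 UMI per 10000 in the members (0.151 to 0.206 in the suffixes) and 7.59 (4.38 to 10.04) in the mitochondria-richer barcodes. The 15 Sertoli markers gave 0.348 against 4.82, with Fshr at 0 in the members, and the 9 Leydig markers 0.0910 against 3.97. The 10 genes with the lowest ratios, from −9.02 for H2-Aa to −7.78 for Fcer1g, were almost all genes of macrophages and antigen presentation. Without barcodes that held at least 2 UMI and 0.1% of UMI from somatic markers (141 members and 665 of the others), their ratios lay between −4.33 for Cyba and 0.21 for Wfdc17, the 1 gene of the 10 that turned. H2-Aa then had −1.84, Tyrobp −1.52 and Cd74 −1.45. Ratios with these barcodes left out are given below where they differ by more than 1.5 times.

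Of 32 acrosome genes with enough UMI, 10 were at least 2-fold higher and 3 lower. Their median was 0.70 on the log2 scale; relative to the median gene 19 were higher and 1 lower. The list holds 4 genes of the rule, and without them 8 of 28 were higher and 3 lower (16 and 1 relative to the median gene). Hyal5, a hyaluronidase of the sperm head, had 253.5, 260.5, 233.5 and 269.5 CPM in the 4 suffixes of the members and 69.3, 88.9, 64.8 and 65.7 CPM in those of the mitochondria-richer barcodes, a log2 ratio of 1.81 (95% interval 1.73 to 1.91). The groups did not overlap. Actl7a, an actin-like protein under the acrosome, had 513.0 to 551.9 CPM against 187.7 to 197.5 CPM (log2 ratio 1.49), and Capza3, a sperm capping protein of actin, had 422.8 to 484.3 against 145.7 to 176.8 CPM (1.49). Of the 3 lower genes, Gopc, a Golgi protein of acrosome formation, had 64 against 161 UMI (−2.29), Dpy19l2, which anchors the acrosome to the nucleus, had 83.7 to 97.5 against 246.9 to 279.9 CPM (−1.54), and Acrbp, a proacrosin binding protein, had 753.0 to 798.7 against 1467 to 1606 CPM (−1.0). Among barcodes of 10000 UMI or more the acrosome median was 1.38.

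Flagellum genes gave 10 higher and 2 lower of 33, with a median of 0.37, and 15 higher and none lower relative to the median gene. Odf3, of the outer dense fibres, had 530.8 to 614.3 CPM in the members and 155.0 to 198.7 CPM in the others (log2 ratio 1.73), and Cabyr, a calcium-binding protein of the fibrous sheath, had 742.1 to 837.8 against 247.8 to 282.7 CPM (1.61). Dnah8, an axonemal dynein heavy chain, was lower, with 50.2 to 59.7 against 143.9 to 185.9 CPM (−1.56). The CatSper list had 1 gene higher and 3 lower of 12 (median −0.31, and 0.11 between barcodes of 10000 UMI or more; 5 higher and 1 lower relative to the median gene; 3 and 1 of 10 without Catsper3 and Catsper4, which belong to the rule), with the auxiliary subunit Catsperb at −1.58 and Lrrc52, a regulator of the sperm potassium channel, at 1.76. The kinases had 3 of 12 higher and 2 lower, 7 and 2 relative to the median gene, but Tssk1 and Tssk2 belong to the rule, and of the other 10 only Camk4 was higher (5 higher and 2 lower relative to the median gene). Camk4, a calcium and calmodulin kinase, had 146.5 to 161.9 against 34.4 to 43.4 CPM (2.02), and Stk31 had 7.14 to 9.45 against 33.9 to 39.9 CPM (−2.21).

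Regulators of spermatid transcription and chromatin lay on both sides. Fhl5, the LIM protein ACT that coactivates CREM in spermatids, had 520.8 to 665.2 CPM in the members and 139.2 to 190.1 CPM in the others (log2 ratio 1.89). Klf17 had 76.5, 88.3, 62.8 and 77.1 CPM against 7.34, 13.7, 6.09 and 8.90 CPM (3.06, 95% interval 2.82 to 3.31). Cdyl, a chromodomain protein, had 250.3 to 316.5 against 56 to 88.7 CPM (1.97), and H1fnt, a spermatid linker histone, had 616.3 to 813.5 against 169.1 to 268.0 CPM (1.68). In the opposite direction, Rnf8, a ubiquitin ligase that acts on histones, had 50 against 123 UMI (−2.26). The chromatin list as a whole had 5 genes higher and 7 lower of 30 (median 0.01; 10 higher and 4 lower relative to the median gene). Zscan5b, a zinc finger gene, had a ratio of 3.71 (95% interval 2.92 to 4.64), from 332 against 13 UMI. It was the highest among genes outside the rule with at least 200 UMI and the same direction in all 4 suffixes. Among all 13557 genes compared the highest ratio was 5.17. Slc25a41, a mitochondrial carrier for adenine nucleotides, was also among the 10 highest, with 53.8 to 70.9 against 4.63 to 9.28 CPM (3.11).

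Nuclear genes of mitochondria did not follow the mitochondrial genome. Of 59 genes of the respiratory chain none was 2-fold higher and 15 were lower, with a median of −0.25, above the −0.59 of all genes. Relative to the median gene 1 was higher and 9 were lower. Ndufa5, of complex I, had 226.1 to 287.8 CPM in the members and 142.8 to 190.9 CPM in the others (log2 ratio 0.66), and Cox6b2, a testis subunit of cytochrome oxidase, had 761.3 to 907.3 against 610.1 to 707.9 CPM (0.33). Ndufa4 (158 against 1056 UMI, −3.70), Sdhd (200 against 995 UMI, −3.27) and Ndufa1 (94 against 409 UMI, −3.08) were the 3 lowest. Genes that express and copy the mitochondrial genome had 2 higher and 5 lower of 14 (median −0.78, with 3 and 3 relative to the median gene). Those of mitophagy had 2 higher and 6 lower of 19, and 3 and 4 relative to the median gene. These mitophagy shares, 10.5% and 31.6%, were near the 11.6% and 37.9% of all genes. Spata18, which acts in mitochondrial quality control, had 459.5, 308.7, 485.4 and 591.6 CPM against 251.8, 213.5, 186.9 and 189.2 CPM (1.14).

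Genes of the meiotic divisions were lower in the members, with none of 19 higher and 13 lower (median −1.22; 5 lower relative to the median gene). Nek2, a centrosomal kinase, had 24.2 to 36.6 against 154.9 to 202.3 CPM (log2 ratio −2.43), Cdk1 had 13.1 to 19.7 against 61.7 to 66.8 CPM (−1.90), and the cyclin Ccnb2 had 282.7 against 291.1 CPM, with overlapping suffixes. Of 20 meiotic prophase genes 10 were lower and 1 higher (7 lower and 4 higher relative to the median gene), the recombinase Dmc1 (16 against 145 UMI, −4.14) being the lowest and Msh4 (667 against 101 UMI, 1.76) the higher one. Dazl, a germ-cell RNA-binding protein, was lower (14.7 to 21.1 against 113.1 to 171.7 CPM, −2.87). The chaperones Hspa5 (72.6 to 95.3 against 1094 to 1241 CPM, −3.76) and Hspa8 (22.3 to 31.2 against 176.9 to 253.7 CPM, −2.99) were lower, and Calr3, a testis calreticulin, was higher (115.4 to 169.3 against 33.6 to 51.5 CPM, 1.65). Glycolysis showed isoform differences: Gapdhs, the sperm enzyme, had 1086 to 1209 against 478.1 to 617.6 CPM (1.07), while the somatic Gapdh had 8.07 to 11.5 against 64.3 to 90.0 CPM (−2.95). Bax, which promotes apoptosis, had 25 against 530 UMI (−5.37). Stress and immediate early genes had a median of −5.28 that was −1.02 without the barcodes that held somatic markers, and nuclear-retained RNAs one of −3.10 that was −0.71.

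Spermatids at the onset of protamine RNA had the same limits as the members except for 3% to 10% of UMI from the 4 transition protein and protamine genes. There were 3041 of them, with a median of 2148 UMI. Against these, 13 of 19 genes of the meiotic divisions were higher in the members. Single genes were lower, among them the kinase Tssk6, Spem1, the glycolytic enzyme Gapdhs and Tfam. Of 11990 genes, 4003 (33.4%) were at least 2-fold higher in the members and 1765 (14.7%) lower. Here the median gene stood at 0.62 (log2 ratio), and counted from there 1580 genes were higher and 2590 lower. Prm2, 1 of the 4 genes that set the limit, had 3044 against 28359 CPM. Macrophage markers gave 1.23 UMI per 10000 in the onset barcodes, against 0.177 in the members, and without barcodes that held somatic markers the median gene stood at 0.64.

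Genes of the meiotic divisions had the largest share of higher genes among the lists described here, with 13 of 19 higher and none lower (median 1.63), and 10 still higher relative to the median gene. Their median was 2.08 between barcodes of 10000 UMI or more and 0.94 between those under 10000. Plk1, the polo-like kinase, had 107.9 to 137.5 CPM in the suffixes of the members and 20.1 to 30.7 CPM in the onset barcodes (log2 ratio 2.17, 95% interval 2.02 to 2.33). Cenpe, a kinetochore motor, had 48.7 to 59.0 against 9.41 to 16.9 CPM (2.03), and Kif11, a spindle motor, had 206 against 17 UMI (2.51). Prophase genes had 8 of 19 higher and 1 lower (3 and 2 relative to the median gene), with Rec8, a meiotic cohesin, at 83.1 to 106.8 against 16.4 to 23.8 CPM (2.32). Of the genes of RNA storage 8 of 19 were higher and 1 lower, and 3 and 1 relative to the median gene. Tdrd7, of the chromatoid body, had 165.3 to 203.4 against 23.1 to 39.8 CPM (2.49), and Ddx4, the germ-cell helicase, 270.2 to 288.2 against 80.7 to 96.9 CPM (1.66).

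Single genes of spermiogenesis separated the members sharply from the onset barcodes. Spam1 had 244.9, 258.2, 240.2 and 236.3 CPM in the members and 39.4, 40.1, 27.3 and 34.1 CPM at the onset (log2 ratio 2.79, 95% interval 2.67 to 2.92). Tssk5 had 97.4, 108.1, 102.4 and 87.9 CPM against 8.67, 8.53, 10.2 and 7.62 CPM (3.52). Tssk6 went the other way with 336.1 to 470.0 against 1345 to 1504 CPM (−1.89), as did Tssk3 (−1.30), so kinases of one family lay on both sides. Of 32 acrosome genes 9 were higher and none lower; their median of 0.62 was that of all genes, with 4 higher and 2 lower relative to it, counts that were the same without the genes of the rule. Spesp1, of the equatorial segment, had a ratio of 2.15 and Cylc1, of the perinuclear theca, one of −0.95.

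Flagellum genes were split. Of 33, 10 were higher and 4 lower, but relative to the median gene 1 was higher and 9 were lower. Spef2, a central apparatus protein, had 59.1 to 64.1 against 12.7 to 18.3 CPM (log2 ratio 1.97), and Spem1, which acts when cytoplasm is shed, had 99.7 to 146.6 against 484.3 to 611.3 CPM (−2.18). Gapdhs (1140 against 2810 CPM) and Gpi1 (125.8 against 530.2 CPM), both of glycolysis, were lower. In the manchette list, Lrguk, a protein of the manchette and flagellum base, was higher (29.9 against 7.12 CPM, 2.07), and Hook1 (250.3 against 606.7 CPM, −1.28) and Ift172 (153.1 against 475.4 CPM, −1.63) were lower. Oaz3 (2112 to 2490 against 4116 to 5419 CPM, −1.10) and Azin2 (−1.17) were lower as well.

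Genes of mitochondria differed one by one. Tfam had 104.2, 118.1, 90.8 and 136.0 CPM in the members and 856.5, 975.9, 939.8 and 928.2 CPM at the onset (log2 ratio −3.04, 95% interval −3.09 to −2.98), so the groups were far apart. Mterf3, a repressor of mitochondrial transcription, was higher (53.7 against 14.4 CPM, 1.90). Respiratory chain genes had 13 of 59 higher and 1 lower, but 1 and 1 relative to the median gene. Sdha had 66.4 against 22 CPM (1.60), and Ndufa13 205.4 against 611.7 CPM (−1.57). The mitophagy genes Spata18 (−1.53) and Gabarapl1 (−1.46) were lower in the members, and so was the calreticulin Calr3 (115.4 to 169.3 against 835.4 to 952.5 CPM, −2.69). The 10 lowest genes of this comparison ranged from −6.63 for Alox5, a lipoxygenase (6 against 279 UMI), to −4.98, and included Ppm1f, a phosphatase (−5.61), and Rap1gap (−5.13). Among the 10 highest were St3gal4, a sialyltransferase (4.06), Mms22l, of replication repair (3.86), and Cd27 (3.75, 1319 against 46 UMI).

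Late spermatocytes were the earlier stage for comparison, 680 barcodes with a median of 31653 UMI, chosen by at least 4 UMI of Pou5f2 and Piwil1 together and no more UMI of the 8 spermatid genes. Of them 577 had 10000 UMI or more, so this comparison runs mostly between deep barcodes. Of 12860 genes, 4133 (32.1%) were at least 2-fold higher in the members and 4802 (37.3%) lower. The median gene stood at −0.39, from which 4556 genes were higher and 3851 lower.

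Acrosome genes were far higher in the members, and the lists of other spermatid structures were mixed. Of 32 acrosome genes 23 were higher and 2 lower, with a median of 6.22, which was 4.09 between barcodes under 10000 UMI. The 28 that do not belong to the rule had a median of 6.14, and 19 of them passed upward and 2 downward. Dcst2 and Dcst1, membrane proteins needed for fertilisation, had 131.4 to 157.6 against 0.154 to 1.25 CPM (7.99) and 179.3 to 197.8 against 0.463 to 1.67 CPM (7.59). Zp3r, an acrosomal matrix protein, had 356.2 to 420.0 against 1.82 to 2.78 CPM (7.38). Kinases had 7 of 12 higher and 2 lower, with Tssk5 at 7.42, Camk4 at 6.46 and Tssk4 at 6.23. The CatSper list had 6 of 12 genes higher and none lower. Both lists hold 2 genes of the rule. Without these, 5 of 10 kinases and 4 of 10 genes of the CatSper list were higher, shares nearer the 32.1% of all genes. Among these kinases 2 were lower. Of 33 flagellum genes 15 were higher and 4 lower (median 0.75; 19 and 3 relative to the median gene), and of 18 manchette genes 5 were higher and 6 lower (median −0.32; 5 and 5 relative to the median gene). Cabyr had 807.7 against 11 CPM (6.20), while Rsph1, of the radial spokes, had 802.7 to 1036 against 4213 to 4620 CPM (−2.23). Sperm isoforms of glycolysis enzymes were higher, as Gapdhs (1140 against 69.3 CPM, 4.04) and Aldoart1 (145.7 against 3.05 CPM, 5.58), and Ldha, the somatic lactate dehydrogenase, was lower (864.5 against 1756 CPM, −1.02).

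The 10 highest ratios belonged to RNAs that spermatocytes nearly lacked. Gm16555 had 2491 UMI in the members and 2 in late spermatocytes, a log2 ratio of 9.99 (95% interval 8.14 to 13.04), Arrb1, a beta-arrestin, had 722 and 1 (9.21, 6.72 to 14.51), and Elovl6, a fatty acid elongase, 703 and 1 (9.17, 6.68 to 14.47). Among the lowest, Ccnb1ip1, a ubiquitin ligase of crossover formation, had 3 UMI in the members and 412 in late spermatocytes (−7.39), Rfxap 13 and 1787 (−7.39), and Alyref, an RNA export factor, 53 and 4290 (−6.63). The synaptonemal complex gene Sycp3 had 33.1 to 46.7 against 431.0 to 521.8 CPM (−3.50). Prophase genes as a list had 3 of 19 higher and 11 lower, and Rec8 was among the higher ones (83.1 to 106.8 against 0.308 to 1.81 CPM, 6.26).

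Nuclear genes of the respiratory chain were lower than in late spermatocytes, with 1 of 59 higher and 29 lower (median −0.99; 1 and 17 relative to the median gene). Sdhd had 200 against 2835 UMI (−4.12) and Cyc1, of complex III, 484 against 3305 UMI (−3.06). Genes that express and copy the mitochondrial genome differed in sign: Tfam had 112.2 against 17.9 CPM (2.65) and Tfb1m 72.7 against 21.9 CPM (1.73), while the polymerase Polg had 13.5 against 96.0 CPM (−2.83) and Esrra, a nuclear receptor of mitochondrial genes, 2.94 against 30.2 CPM (−3.36). Tfam in shallow members was near the level of free RNA. Deep members held 2.86 UMI of Tfam per barcode and late spermatocytes 0.681, at median depths of 28758 and 31653 UMI. The 11 mitochondrial genes were lower with a median of −3.90, which the rule sets in part. Of 48 ribosomal protein genes none was higher and 21 were lower (median −0.90), with Rpl14 at 51.5 against 810.5 CPM (−3.98). Ribosomal protein genes have many pseudogene copies, so the counts of single members are uncertain.

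**Figure D4:**
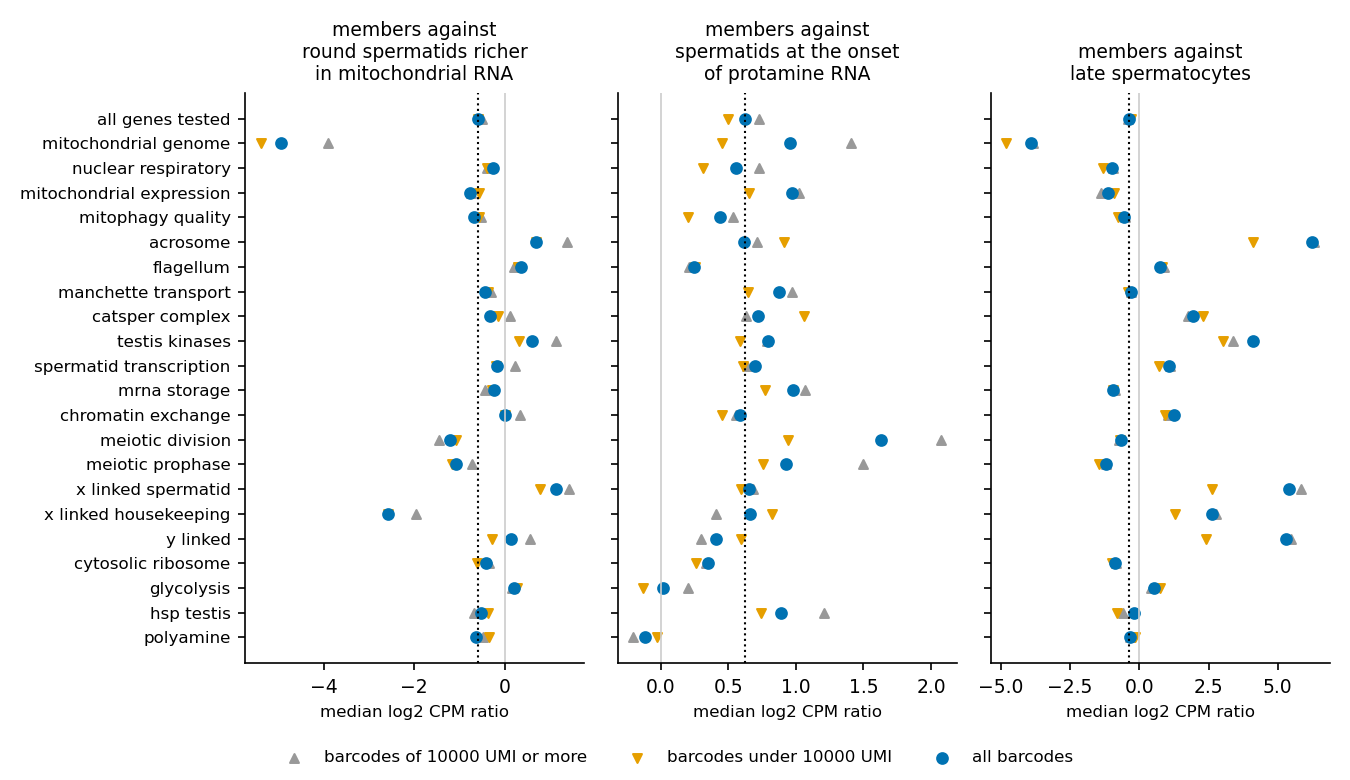
Median log2 ratio of CPM (horizontal axis) of each gene list (rows) in the members over each of 3 comparison groups (panels), for all barcodes (blue circles), barcodes of 10000 UMI or more (grey triangles) and those under 10000 UMI (yellow triangles). The dotted line is the median of all genes tested (−0.59, 0.62 and −0.39); the acrosome list lies at 0.70, 0.62 and 6.22 and the meiotic division list at −1.22, 1.63 and −0.66.

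A DNA element known from spermatid promoters was looked for among these genes. TGACGTCA is the cAMP response element, bound by CREM and CREB; it reads the same on both strands. Of 27025 genes with a RefSeq promoter window (GRCm38.p6, 250 bases before to 50 after the start), 549 (2.03%) held it. Among genes compared with late spermatocytes that had a window it was in 365 of 9430 (3.87%), in 103 of 2917 higher in the members (3.53%) and in 130 of 3611 lower (3.6%). Neither share was above that of all genes compared, and none of the 7 spermatid genes of the rule with a window held it. A further count took only matches before the start, with a chromosome left out, and gives no share of the named genes. That count cannot be set against the shares above. The element stood before the start of 11 named genes, among them H2-Aa and Ldha, which were lower in the members. Of these, 3 are shown because Gm16555 had the highest ratio over late spermatocytes, Spag4, of the manchette and nuclear envelope, the highest of its list (493.2 to 554.3 against 10.9 to 14.2 CPM, 5.42), and Lrguk the highest of its list over the onset barcodes. Spag4 was also among the lowest of its list in another comparison. Capitals mark the element, bases run 5′ to 3′ on the strand of the gene, and a match is not evidence of binding.
Gm16555, chr17:49821839-49821926, minus strand, element 81 bases before the start: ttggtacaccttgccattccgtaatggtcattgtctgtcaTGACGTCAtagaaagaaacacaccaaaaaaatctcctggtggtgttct
Spag4, chr2:156065136-156065212, plus strand, element 37 bases before the start: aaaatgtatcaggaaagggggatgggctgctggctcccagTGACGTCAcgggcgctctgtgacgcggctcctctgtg
Lrguk, chr6:34029382-34029447, plus strand, element 26 bases before the start: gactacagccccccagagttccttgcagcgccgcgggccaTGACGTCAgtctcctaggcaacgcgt

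RNA of the sex chromosomes, silenced in pachytene spermatocytes and partly active again after meiosis, was present in the members. X-linked genes gave 1.23% of their UMI (1.25%, 1.27%, 1.14% and 1.24% in suffixes 1 to 4), against 0.920% in the mitochondria-richer barcodes, 1.56% at the onset of protamine RNA and 0.0506% in late spermatocytes. Y-linked genes gave 0.0538% (0.0559%, 0.0569%, 0.0519% and 0.0500%), against 0.0365%, 0.0270% and 0.00153%. Without barcodes that held somatic markers the mitochondria-richer ones had 0.768% and 0.0374%. In both shares the suffixes of the members lay apart from those of the other 3 groups. The Smcp-rich members stood out with 0.727% X-linked and 0.0143% Y-linked UMI. Each haploid cell carries 1 sex chromosome, yet 653 of the 656 deep members held a Y-linked UMI; the part of shared RNA, free RNA and doublets in this was not tested. Thinned to 1000 UMI per barcode, 34.1% of members (32.5% to 35.6%, with 251 shallower ones left out, and 62.3% unthinned) held a Y-linked UMI. The thinned share was 30.6% (28.98% to 32.25%) in the mitochondria-richer barcodes and 22.23% (20.66% to 23.86%) at the onset of protamine RNA. In late spermatocytes it was 2.65% (1.58% to 4.15%).

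**Figure D5:**
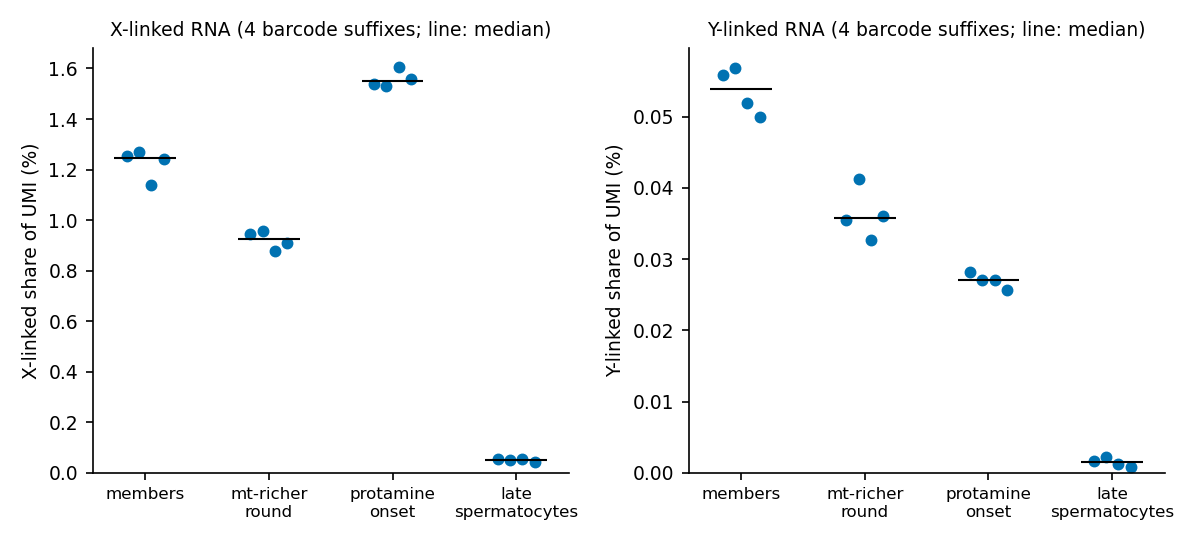
Share of UMI from X-linked (left) and Y-linked genes (right), in %, in the members and 3 comparison groups (horizontal axis); each point is 1 of 4 barcode suffixes and the line is their median. Late spermatocytes lie near 0 in both panels, and the members have the highest Y-linked share, from 0.0500% to 0.0569%.

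Single sex-linked genes showed the same contrast with late spermatocytes. All 18 spermatid genes of the X and all 10 genes of the Y with enough UMI were at least 2-fold higher in the members, with medians of 5.39 and 5.29, and of 2.63 and 2.42 between barcodes under 10000 UMI. Akap4, the main fibrous sheath protein, had 547.1 to 656.1 against 21.6 to 27.5 CPM (4.64), Rhox11, a homeobox gene, 776 against 6 UMI (6.72), and the Y-linked translation factor Eif2s3y 88.9 to 106.5 against 0.925 to 2.36 CPM (5.92). Over the mitochondria-richer barcodes, 11 of 20 spermatid genes of the X were higher and 3 lower (13 and 3 relative to the median gene), whereas of 14 housekeeping genes of the X none was higher and 12 were lower. Hprt, of purine salvage, had 3 against 262 UMI there, a log2 ratio of −7.41 (95% interval −9.70 to −5.85). The median of the housekeeping list was −2.59, and −1.88 without the barcodes that held somatic markers. Multicopy families of the X and Y, such as Ssty2, share near-identical copies, so their counts are uncertain.

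The 4 suffixes agreed closely for most genes of the members. Of 6589 genes with at least 100 UMI in the highest suffix and 20 in the lowest, the median ratio of highest to lowest CPM was 1.22, and 122 genes differed by over 2-fold and 30 by over 3-fold. The genes named here were chosen after their values were seen. 4930458D05Rik, at chr5:100840797-100847167, had 140.2, 133.3, 68.7 and 4.49 CPM in suffixes 1 to 4, and 2010109A12Rik, at chr5:93206518-93213475, had 87.1, 97.0, 51.9 and 9.38 CPM. Both were lowest in suffix 4, and so they were in each comparison group measured, as with 76.6, 78.0, 39.0 and 1.48 CPM of 4930458D05Rik in the mitochondria-richer barcodes. A set of genes was lowest in suffix 1, among them Dynlt1a (51.4, 231.3, 243.0 and 211.9 CPM), which has near-identical copies, and RP23-2D23.2 (11.8, 56.4, 56.2 and 46.9 CPM). Phf7, the gene floxed in this study, a ubiquitin ligase of histones in spermatids, had 83.3, 442.8, 871.7 and 115.5 CPM, and Brdt, in the same order, 142.7, 152.9, 145.5 and 145.8 CPM. These values were not used to assign a genotype to a suffix.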

How the data were processed

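Suspensions of 4 testis samples were run on Chromium Single Cell 3′ v3, per the labels' protocols. bcl2fastq 2.19.1.403, Cell Ranger 3.0.2 and the mouse build mm10 are named in the submitters' processing notes. The authors deposited 1 matrix of raw UMI counts, 28692 genes by 32273 barcodes, with 44447735 to 50353091 UMI and 7539 to 8562 barcodes in each of its 4 barcode suffixes. The 281 barcodes with under 500 genes were left out.

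From the counts, UMI were summed over the barcodes of a group and divided by their total (CPM). Levels carry exact Poisson, shares exact Clopper-Pearson and log2 ratios exact conditional binomial intervals, all 95%. Genes with at least 50 UMI over both groups of barcodes were compared. A gene counted as higher or lower when the pooled CPM differed at least 2-fold and all 4 suffixes went the same way. A group at 0 was set to a floor of 3 counts over the group. Named genes were, in each comparison, the 10 highest and 10 lowest ratios among genes with at least 200 UMI and, in each list, up to 3 highest and 3 lowest, beside the genes of the limits, Phf7, Brdt and the 20 highest CPM of the members. Genes that lead a group within the members, those followed along the mitochondrial and protamine shares and those that differ between suffixes were chosen after their values were seen. The members and the gene lists were chosen with earlier results of these data known. No doublet caller was used, so doublets must be assumed to remain, also among the deepest barcodes. Gene positions were found for 28416 of the gene IDs in GENCODE, and 276 had none. Python 3.11.15, numpy 2.4.6, pandas 2.3.3, scipy 1.17.1 and matplotlib 3.10.9 were used.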

Additional observations from a re-analysis of the deposited data

How the results depend on the processing

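Leaving out each suffix in turn gave 2784 to 2910 members. Against the mitochondria-richer barcodes it gave 1468 to 1564 higher and 4630 to 4820 lower genes, against the onset of protamine RNA 3627 to 4191 and 1620 to 1703, and against late spermatocytes 3885 to 3938 and 4545 to 4711. A minimum of 1000 genes left 2520 members, by construction. Thinning each barcode to 1000 UMI, which leaves fewer genes to compare, gave 708 higher and 2210 lower genes against the mitochondria-richer barcodes, 1419 and 731 against the onset, and 2385 and 2003 against late spermatocytes. In barcodes under 10000 UMI there were 2276 and 1033 against the onset and 2723 and 2189 against late spermatocytes, also among fewer genes. Against the mitochondria-richer barcodes, 3410 were lower with at least 8 spermatid UMI and 3242 in barcodes of at least 10000 UMI, and 991 were higher by mean CPM over barcodes. Against the onset 1881 were higher by mean CPM. Relative to the median gene 2765 and 1580 were higher in these comparisons, by construction. The cause of the changes in mean CPM and with 8 UMI was not tested. The median of the genes that express the mitochondrial genome, −1.14 against late spermatocytes, turned to 0.062 after thinning, and the cause was not tested. Among the named genes that counted as higher or lower, Wfdc17 alone changed direction under the alternatives run. It went to 0.21 (log2 ratio) without barcodes that held somatic markers. The size of the ratios held less well than their direction. For 230 results of named genes under 23 settings there were 5290 values. Of these, 3259 were classed as the same and 2030 as moved without a change of direction. The intervals of single ratios cover counting error only and not such changes. Named genes that counted as neither, such as Ccnb2, were not checked for a change of direction. The alternatives by depth, somatic markers, Smcp and shared barcode sequences were chosen after seeing the data. No paired analysis was possible because the counts come from no test and no label links the suffixes to numbered samples; the direction within each suffix is already part of what counts as higher or lower. Depth limits the shallow members, whose median is 1399 UMI at 2% to 3% of protamine UMI.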

Other observations

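Of 10 polyamine genes 1 was higher in the members than in the mitochondria-richer barcodes and 5 were lower, with 2 and 2 relative to the median gene. Oaz3 had 2212 against 931.9 CPM (log2 ratio 1.25), and Sat1, which starts polyamine breakdown, had 8 against 246 UMI (−5.90, 95% interval −7.13 to −4.90). Oaz3 was at 23826 CPM in the Smcp-rich members and at 1388 to 1788 CPM in the other groups of members. The pooled 2212 CPM thus rests in part on the Smcp-rich ones. Against late spermatocytes Oaz3 had 2212 against 81.3 CPM (4.77). Heat shock and chaperone genes of the testis had 2 of 13 higher and 6 lower against the mitochondria-richer barcodes (3 and 4 relative to the median gene). Against the onset of protamine RNA 5 were higher and 2 lower, and relative to the median gene none was higher and 2 were lower. There Hspa2, the testis HSP70 family member, had 830.0 against 290.1 CPM (1.52) and Hspa1l, of the same family, 68.2 against 184.0 CPM (−1.43).

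The RNA-binding protein gene Mex3b had 9.38 CPM in the members, 3.63 CPM in the mitochondria-richer barcodes, 54.3 CPM at the onset and 0.386 CPM in late spermatocytes. Brdt had 147 CPM in the members, 145 CPM in the mitochondria-richer barcodes, 61.6 CPM at the onset and 194 CPM in late spermatocytes, with 51.8 to 74.1 CPM in the suffixes of the onset barcodes and 142.7 to 152.9 CPM in those of the members. 4930408O17Rik, a gene chosen after its values were seen, had 31.2, 58.0, 5.46 and 7.27 CPM in suffixes 1 to 4 of the members. Gm44205, chosen in the same way, had 5.06, 28.9, 31.2 and 6.21 CPM.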
